A study of Drosophila melanogaster with 16 samples.

Results

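The genes described here encode the contractile apparatus of muscle, read in dissected midguts of female Drosophila melanogaster. They were taken from a list of 32 names as the genes whose symbol stands alone on a probe set of the array. Of these, 25 were measured, among 11982 genes with a symbol of their own. The other 7 (Mhc, wupA, Tm1, TpnC47D, TpnC25D, Act57B and Mef2) were matched neither by symbol nor by gene ID and were not analysed here. Where a gene had several probe sets, the one with the highest mean over all arrays stood for it.

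The study hybridised 16 arrays in 4 groups of 4. The RafGOF group overexpressed a gain-of-function form of Raf, the kinase that carries receptor signals to the MAP kinase cascade. The RafGOF NotchDN group overexpressed a dominant-negative Notch receptor together with RafGOF, and the RafGOF NotchIC group overexpressed the Notch intracellular domain, its active form, together with RafGOF. The control group was wild type (WT). The labels used here name neither the driver of the transgenes nor the age of the flies, and they do not say whether arrays of one group came from separate animals, pools or crosses. The p-values therefore measure the spread between arrays, which may be technical.

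The fly midgut is an epithelial tube of stem cells, enterocytes and enteroendocrine cells, wrapped by striated visceral muscle. A sarcomere slides thick filaments of myosin along thin filaments of actin, tropomyosin and troponin. Thin filaments are anchored at Z discs, and giant titin-like proteins tie thick filaments to them. A dissected gut holds this muscle along with the epithelium, so its RNA is a mixture.

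Array medians lay between 5.48 and 5.70 on the log2 scale, and arrays of one group correlated at 0.979 to 0.995 across probe sets. The enterocyte digestion list, which marks the labelled tissue, averaged 12.32 to 12.53 on wild-type arrays and the ovary list 4.62 to 4.73. The arrays numbered 2 in the labels tended to deviate together from their group means, so the counts are also given without them. A gene was called when its adjusted p in a limma fit over all 16 arrays was under 0.05. Of the 25 genes, 22 had a mean of at least 5. The other 3 (Zasp67, TpnC41C and TpnC4) lay below that, between 3.05 and 4.22, with no detection call used here. Another 4 genes (Mlp84B, tn, Tm2 and Act87E) were read on probe sets whose suffix marks probes that can match transcripts of more than one gene.

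**Figure D1:**
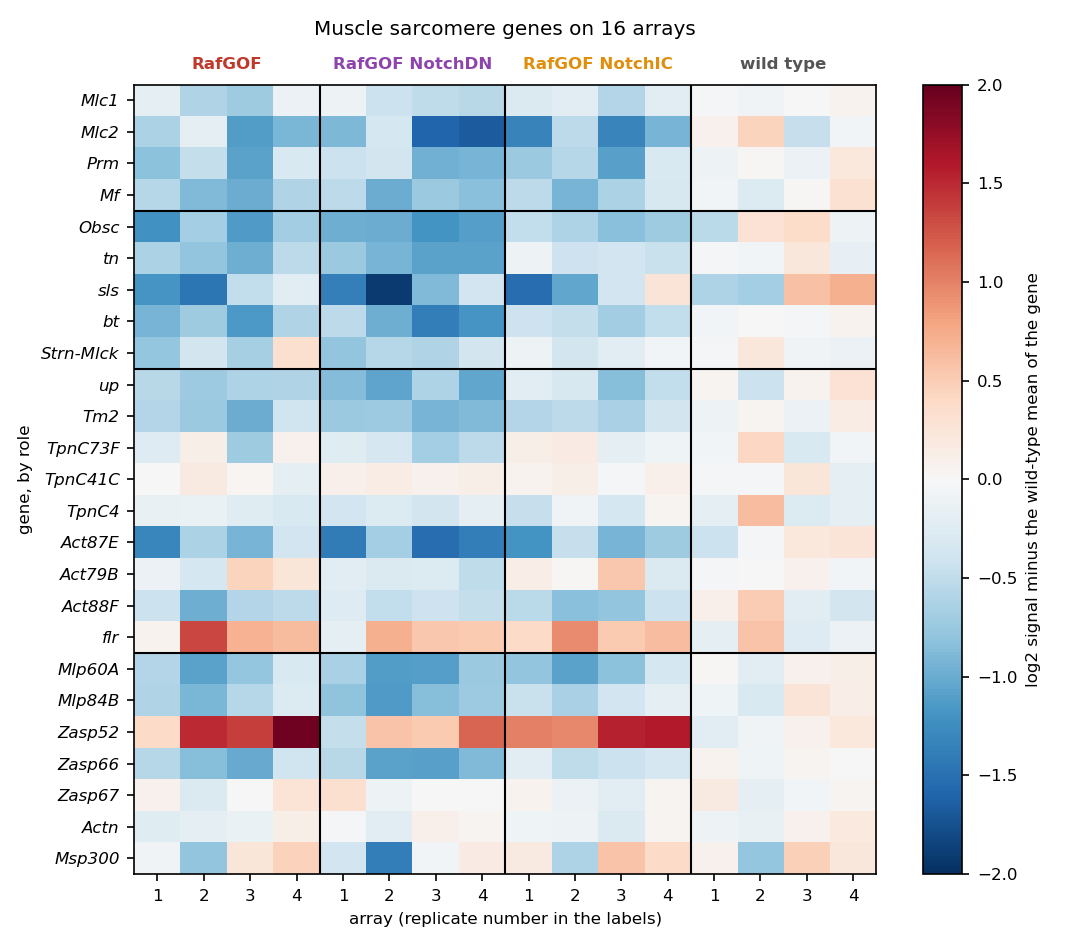
Each cell is the log2 signal of a gene (down the page, grouped by role) on an array (across, by group and replicate number) minus the wild-type mean of that gene. Blue, which marks a signal below the wild-type mean, fills most cells of the RafGOF, RafGOF NotchDN and RafGOF NotchIC arrays. On these arrays most cells of Zasp52 and flr are red. Most cells of the dim genes TpnC41C and Zasp67 also lie above the mean, by small amounts. Several cells of Msp300 and Act79B, and some of other genes, lie above it too.

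RafGOF midguts held less signal of most sarcomere genes than wild-type midguts. Of the 25 genes, 13 fell and 1, Zasp52, rose, while 11 did not pass. Over all genes, 10.1% fell and 14.9% rose in the same comparison. The median change of the 25 genes was -0.62 (log2), beside -0.0032 for all genes, and 20 of the 25 changes were below 0. The called genes stood at 52.5% (Obsc) to 75.2% (Mlc1) of their wild-type signal. In 11 genes all 4 RafGOF arrays lay below all 4 wild-type arrays, as in 10.7% of all genes. In bulk RNA, fewer muscle cells in the sample and less RNA per muscle cell cannot be told apart.

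With the replicate number as a block, 15 genes fell and 2 rose, beside 15.0% and 22.5% of all genes. With the arrays numbered 2 left out, 11 genes fell and 1 rose (9.13% and 14.9% of all genes). The rise was then that of flr (0.65, adjusted p = 0.0408), and Zasp52 no longer passed (1.21, adjusted p = 0.0676). Averaged over the 25 genes, the deviation from the wild-type mean was -0.48, -0.43, -0.48 and -0.13 on RafGOF arrays 1 to 4, against -0.09, -0.01, 0.04 and 0.06 on wild-type arrays 1 to 4. RafGOF array 4 was the nearest to wild type, and no RafGOF array reached the wild-type range.

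Of the 4 thick-filament genes, 3 fell, all but Mlc2. Mlc1, the essential myosin light chain, had signals of 11.56, 11.15, 11.04 and 11.63 on the RafGOF arrays, against 11.73, 11.69, 11.76 and 11.83 on the wild-type arrays, in the order of the replicate numbers, as are all array values here. The groups did not overlap, but the gap between RafGOF array 4 and the lowest wild-type array was small. Mlc1 fell by 0.41 (SE 0.139, adjusted p = 0.0499), a call at the edge of the threshold. It was lost in 10 of the 16 alternative fits, among them the fit without the arrays numbered 2 (-0.37).

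Prm, the paramyosin of the thick-filament core, measured 9.34, 9.67, 9.09 and 9.85 on RafGOF arrays and 10.05, 10.17, 10.04 and 10.36 on wild-type arrays. RafGOF lay below wild type throughout, and the fall was 0.67 (SE 0.193, adjusted p = 0.0225). Mf, which encodes the thick-filament protein myofilin, read 11.34, 11.03, 10.93 and 11.32 in RafGOF, against 11.87, 11.64, 11.94 and 12.22 in wild type. Here too every RafGOF array was below every wild-type array, with a change of -0.76 (SE 0.152, adjusted p = 0.00193). Mlc2, the regulatory light chain, had 8.45, 8.91, 7.97 and 8.17 in RafGOF and 9.17, 9.53, 8.63 and 9.03 in wild type. Its groups overlapped, and array 2 was the highest and array 3 the lowest of both groups. The change of -0.71 did not pass (adjusted p = 0.108) and did pass with the replicate block (adjusted p = 0.0017).

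Among the giant filament-linking proteins and tn, 3 of 5 fell and the median change was -0.83. Obsc encodes obscurin, a giant kinase-domain protein of the M band in the middle of the sarcomere. Its signals were 6.18, 6.72, 6.27 and 6.70 in RafGOF, against 6.86, 7.68, 7.76 and 7.29 in wild type. The groups were apart, although wild-type array 1 came close to the highest RafGOF arrays. The fall in Obsc was 0.93 (SE 0.176, adjusted p = 0.0013), to 52.5% of wild type.

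Projectin, the titin-like product of bt, gave 9.18, 9.40, 8.96 and 9.51 in RafGOF and 10.06, 10.12, 10.08 and 10.18 in wild type. Wild-type arrays were tightly grouped, and all RafGOF arrays were below them, with a change of -0.84 (SE 0.157, adjusted p = 0.00112). The gene tn (thin) encodes a TRIM-family protein needed to keep muscle intact. Its signals were 8.13, 7.97, 7.79 and 8.23 in RafGOF, against 8.74, 8.71, 8.99 and 8.60 in wild type. No RafGOF array of tn reached a wild-type one, and the fall was 0.73 (SE 0.119, adjusted p = 0.000393).

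The titin-like gene sls (sallimus) had 6.92, 6.66, 7.61 and 7.87 in RafGOF, against 7.48, 7.42, 8.69 and 8.81 in wild type. In both groups arrays 1 and 2 were low and arrays 3 and 4 high, so the groups overlapped although each RafGOF array was below the wild-type array of its number. The change of -0.83 (SE 0.437) did not pass without the block (adjusted p = 0.23) and passed with it (adjusted p = 0.000493). Strn-Mlck, of the myosin light chain kinase family, read 6.73, 7.13, 6.84 and 7.81 in RafGOF and 7.46, 7.72, 7.43 and 7.38 in wild type. RafGOF array 4 was the highest of all 8. The change was -0.37 (adjusted p = 0.195), and -0.60 when that array was left out, which then passed.

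Thin-filament genes were split, with 4 of 9 lower, none higher and a median change of -0.20. The troponin T gene up measured 9.02, 8.85, 8.96 and 8.98 in RafGOF, against 9.63, 9.15, 9.65 and 9.86 in wild type. RafGOF arrays were closely grouped below the wild-type ones, and the fall was 0.62 (SE 0.154, adjusted p = 0.0086). Tm2, a tropomyosin gene, had 9.95, 9.79, 9.54 and 10.13 in RafGOF and 10.43, 10.58, 10.42 and 10.68 in wild type. The groups were separate, with a change of -0.68 (SE 0.115, adjusted p = 0.000541).

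Of the 3 muscle actins measured, 2 fell. Act87E gave 9.32, 10.00, 9.69 and 10.24 in RafGOF and 10.19, 10.59, 10.83 and 10.89 in wild type. Only RafGOF array 4 and wild-type array 1 crossed, and the change was -0.82 (SE 0.229, adjusted p = 0.019). Act88F, the actin of the indirect flight muscle, had 5.90, 5.36, 5.74 and 5.81 in RafGOF, against 6.44, 6.84, 6.10 and 5.96 in wild type. These groups did not overlap, but they nearly met, and the fall of 0.63 (SE 0.17, adjusted p = 0.0148) became 0.35 and did not pass without the arrays numbered 2. For Act79B, an actin of tubular muscles, RafGOF averaged 6.01 ± 0.36 and wild type 5.95 ± 0.058 (SD, n = 4 each), a change of 0.06 with a 95% interval of -0.31 to 0.42.

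The troponin C genes, whose products bind the calcium that switches contraction on, gave no call. TpnC73F averaged 8.69 ± 0.387 in RafGOF and 8.88 ± 0.302 in wild type (SD, n = 4 each), with a change of -0.19 and a 95% interval of -0.58 to 0.20. TpnC41C and TpnC4, which lay under the mean of 5, changed by 0.01 and -0.20. The gene flr encodes an actin-interacting protein that speeds the disassembly of actin filaments, in muscle and in other cells. It had signals of 8.96, 10.23, 9.58 and 9.53 in RafGOF, against 8.71, 9.46, 8.63 and 8.77 in wild type. Array 2 was the highest of both groups, and RafGOF array 1 lay within the wild-type range. The change of 0.68 (SE 0.253) missed the threshold without the block (adjusted p = 0.0746) and passed with it (adjusted p = 0.0011) or without the arrays numbered 2 (adjusted p = 0.0408).

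Z-disc and attachment genes went both ways, with 3 of 7 lower and 1 higher. Mlp60A, a muscle LIM protein gene, read 11.93, 11.45, 11.75 and 12.21 in RafGOF and 12.54, 12.31, 12.60 and 12.63 in wild type. RafGOF was below wild type on every array, and the fall was 0.68 (SE 0.173, adjusted p = 0.0102). The related Mlp84B had 9.49, 9.18, 9.52 and 9.81 in RafGOF and 10.01, 9.79, 10.35 and 10.22 in wild type. RafGOF array 4 and wild-type array 2 overlapped narrowly, and the change was -0.59 (SE 0.149, adjusted p = 0.00976).

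The Zasp genes encode PDZ-domain proteins that bind alpha-actinin at the Z disc, and they did not move together. Zasp66 measured 11.06, 10.77, 10.62 and 11.23 in RafGOF, against 11.69, 11.53, 11.67 and 11.61 in wild type. The groups were well apart, and Zasp66 fell by 0.70 (SE 0.136, adjusted p = 0.0015). Zasp52 had 10.19, 11.30, 11.19 and 11.76 in RafGOF, against 9.58, 9.74, 9.90 and 10.02 in wild type. All RafGOF arrays were above all wild-type arrays, with RafGOF array 1 only just so. Zasp52 rose by 1.30 (SE 0.325, adjusted p = 0.00935), to 2.46 times the wild-type signal. Its product is also known at integrin adhesion sites outside muscle.

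Zasp67, under the mean of 5, changed by 0.02. Actn, the alpha-actinin that cross-links thin filaments at the Z disc, averaged 9.01 ± 0.166 in RafGOF and 9.12 ± 0.16 in wild type (SD, n = 4 each). The change in Actn was -0.11, and its 95% interval of -0.35 to 0.12 leaves out falls as large as those of its partner Zasp66. Msp300, a giant nesprin that links nuclei and Z discs, averaged 10.06 ± 0.546 in RafGOF and 10.10 ± 0.541 in wild type. The interval of its change, -0.81 to 0.74, was wide.

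**Figure D2:**
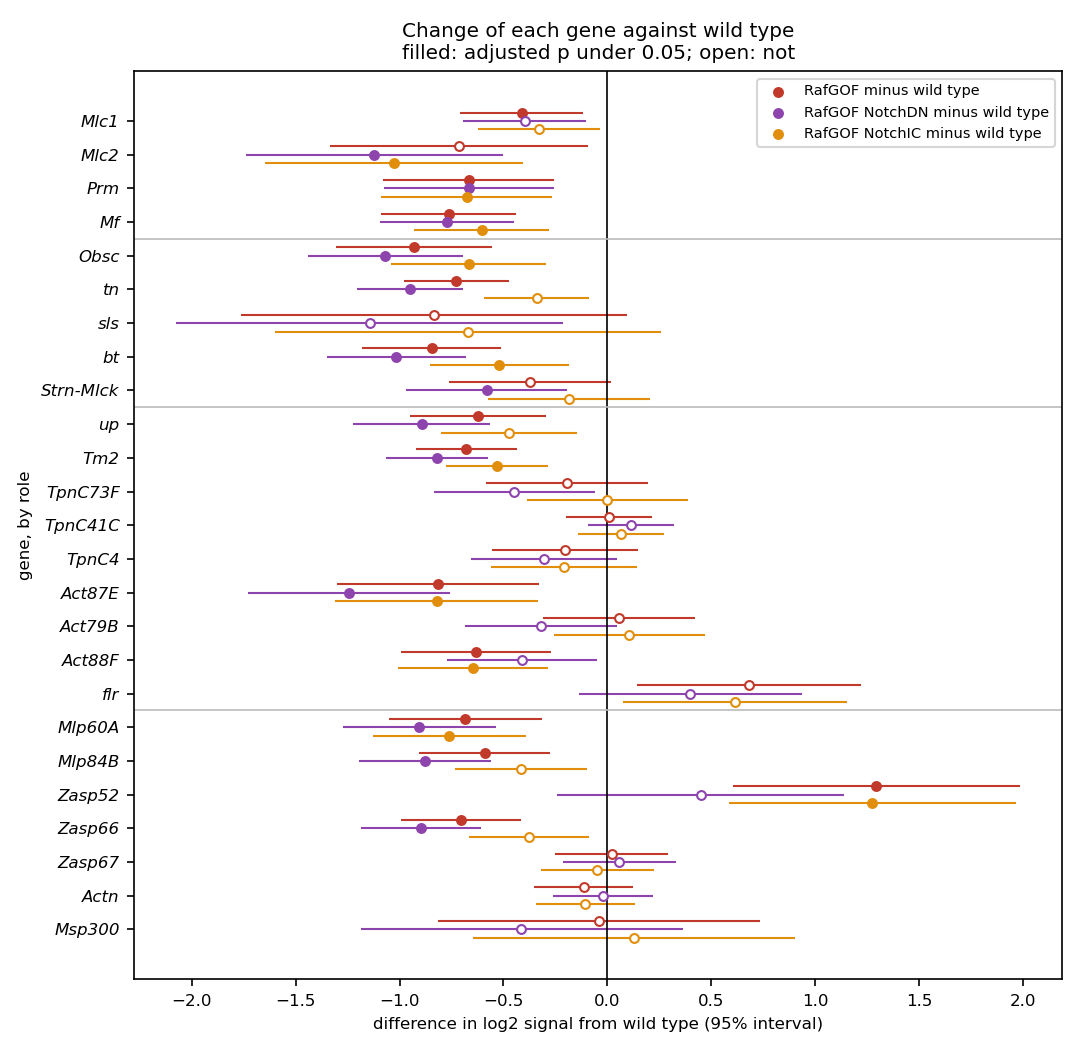
Points are changes in log2 signal against wild type of each of the 25 genes in RafGOF, RafGOF NotchDN and RafGOF NotchIC midguts, with 95% intervals as lines and filled points where the adjusted p was under 0.05. Most points lie left of 0, and Zasp52 lies at 1.30 in RafGOF and 1.28 in RafGOF NotchIC.

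Of the 13 falls, 8, those of Mlp60A, Mlp84B, Zasp66, Obsc, tn, bt, up and Tm2, kept their call in all 16 alternative fits. Act88F, Prm, Act87E, Mf and Mlc1 each lost it in at least 1.

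Further probe sets, 17 in all, belonged to 9 of the genes, and 12 of them had a mean of at least 5. In RafGOF, 4 of the 17 were lower and none was higher, beside 1474 lower and 2104 higher of all 18769 probe sets. The second probe set of Zasp66 fell by 0.99 (adjusted p = 0.00113) and that of Prm by 0.67 (adjusted p = 0.00504), as their first ones did. For sls and Msp300, by contrast, a dimmer probe set was called where the brightest was not. The third of sls averaged 5.79 in RafGOF and 6.34 in wild type (change -0.55, adjusted p = 0.0194). One of Msp300 averaged 5.88 ± 0.269 in RafGOF and 6.63 ± 0.188 in wild type (change -0.75, adjusted p = 0.00118), and the other Msp300 probe sets did not pass.

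Mf differed the other way. Its second probe set, with nearly the same brightness, had 11.47, 10.87, 10.93 and 11.35 in RafGOF, against 11.11, 10.96, 11.21 and 11.21 in wild type. These groups overlapped, and the change was 0.03 (adjusted p = 0.924), where the first probe set of Mf had fallen by 0.76. Averaging both probe sets gave -0.37, which did not pass. Both other probe sets of Mlp60A, at -0.23 (adjusted p = 0.411) and -0.26 (adjusted p = 0.126), also did not pass. Which transcripts the probe sets read was not tested.

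**Figure D3:**
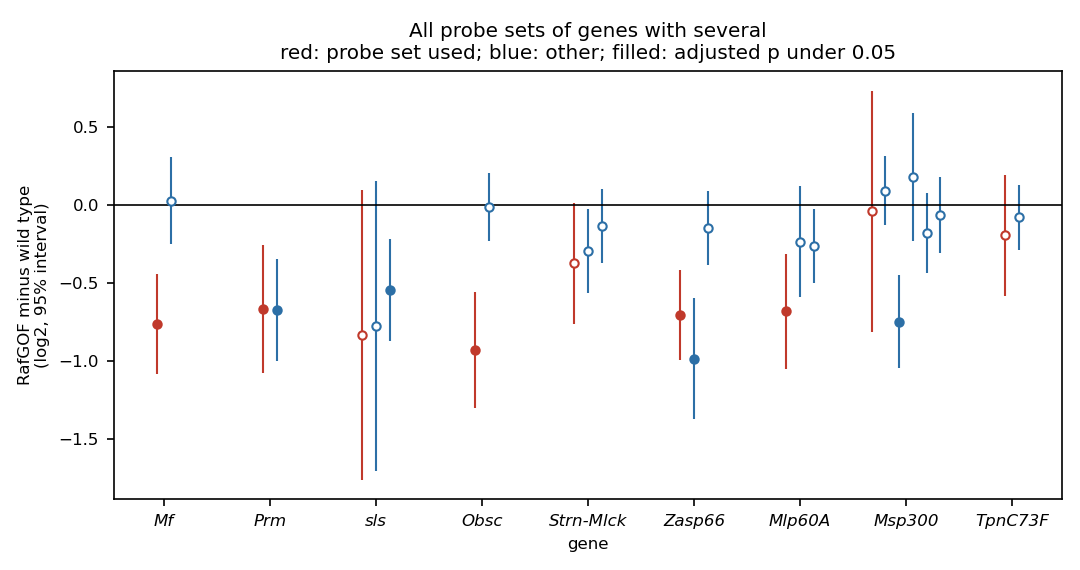
Changes in RafGOF against wild type (log2, 95% interval) are drawn for every probe set of the 9 genes with several, the one used in red and the others in blue, filled where the adjusted p was under 0.05. The 2 probe sets of Zasp66 and of Prm that are filled lie together, while those of Mf lie at -0.76 and 0.03.

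Of 28 other muscle genes measured, some of them also of the filaments (fln, tmod and sals), 4 rose and 5 fell in RafGOF. Over all genes 14.9% rose and 10.1% fell. The median change of these 28 genes was -0.15. Dg, the dystroglycan gene, rose by 1.41 (adjusted p = 0.000198) and kirre, an immunoglobulin-family receptor of myoblast fusion, by 1.14 (adjusted p = 1.2e-05). Argk1, an arginine kinase gene, fell by 1.03 (adjusted p = 0.000269). The list of non-muscle actin and myosin genes moved the other way from the sarcomere genes, with 6 of 8 measured genes higher, none lower and a median of 0.58. Of its 15 entries, the actins Act5C and Act42A and the myosin genes zip and sqh were among those not measured. The 8 were Mlc-c, tsr, chic, Moe, alpha-Spec, beta-Spec, cpa and cpb. Both capping protein subunits were among the higher ones, cpa at 1.02 (adjusted p = 0.00644) and cpb at 0.83 (adjusted p = 0.0131).

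Markers of other tissues were read beside these results. Of 8 Malpighian tubule genes, 5 fell and none rose, with a median of -0.87, led by Oatp58Db (-1.47), Prestin (-1.21) and Picot (-0.96). The mean of that list was 8.63 to 9.08 on RafGOF arrays and 9.33 to 10.24 on wild-type arrays. Of 5 flight-muscle genes, 4 of them also sarcomere genes described here, Act88F fell, and that list averaged 4.70 to 4.87 in RafGOF and 4.84 to 5.35 in wild type. Of all genes, 10.1% were called lower. Lower calls numbered 2 of 7 for trachea, 1 of 10 for hemocytes, 1 of 9 for fat body, 0 of 9 for neurons and 0 of 7 for ovary. For the last 2 lists limma gave 3 and 0 genes at an unadjusted p under 0.05. Gut lists moved further, with 9 of 10 enterocyte digestion genes lower (median -2.21) and 4 of 6 progenitor genes higher (median 0.92). The part of these tissues and cells in the fall of sarcomere genes was not tested.

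**Figure D4:**
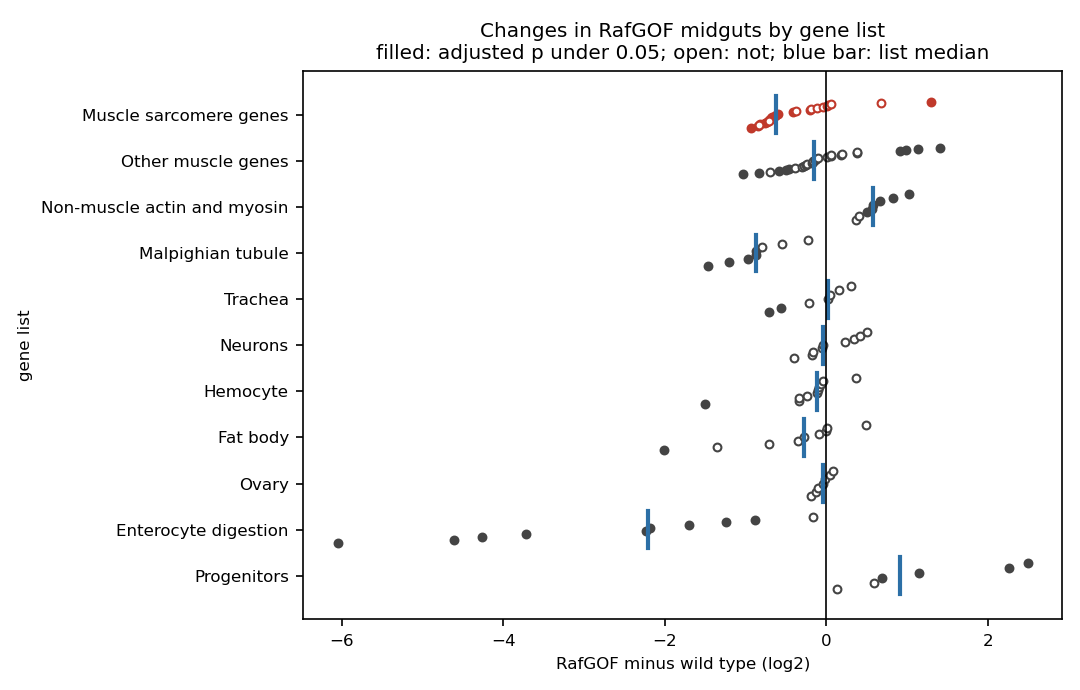
Each point is the change in RafGOF against wild type (log2) of a gene, by list, filled where the adjusted p was under 0.05, and blue bars are list medians. The sarcomere genes have a median of -0.62, beside -0.87 for the Malpighian tubule genes and -2.21 for the enterocyte digestion genes. The list of non-muscle actin and myosin genes, of which 8 were measured, has a median of 0.58.

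The arrays of RafGOF with a Notch transgene were set against the same wild-type arrays, so the values of the 3 comparisons are given side by side and not as independent evidence. In RafGOF NotchDN, 13 of 25 genes fell and none rose (12.1% and 14.6% of all genes), and the median change was -0.67. At an unadjusted p under 0.05 limma gave 17 genes, none of them higher. The share of all genes at that threshold was not counted, here or for the other counts at an unadjusted p. All 4 NotchDN arrays were below all wild-type arrays in 14 genes, against 12.8% of all genes. In RafGOF NotchIC, 9 genes fell and 1 rose (6.77% and 9.98% of all genes), and the median was -0.38. Its arrays were all below wild type in 10 genes, against 8.78% of all genes. The mean deviation of the 25 genes from wild type was -0.52, -0.60, -0.62 and -0.54 on NotchDN arrays 1 to 4, and -0.33, -0.33, -0.36 and -0.14 on NotchIC arrays 1 to 4. With the replicate block, NotchDN had 17 genes lower, now with Mlc1, sls, Msp300 and TpnC73F, and 1 higher, flr (17.4% and 20.5% of all genes). Of the 9 falls in NotchIC, those of Mlp60A and Tm2 kept their call in all 16 alternative fits. The others lost it in 2 (Mf) to 12 (bt) of them.

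Mlc1 had 11.66, 11.32, 11.24 and 11.20 in NotchDN and 11.47, 11.53, 11.17 and 11.53 in NotchIC. Every array of both groups was below the wild-type ones, yet neither change passed (-0.40, adjusted p = 0.055, and -0.33, adjusted p = 0.147). For Mlc2 the signals were 8.19, 8.74, 7.51 and 7.43 in NotchDN and 7.75, 8.56, 7.77 and 8.16 in NotchIC. Array 2 was again the highest in each. Mlc2 fell in both, by 1.12 in NotchDN (adjusted p = 0.0106) and by 1.03 in NotchIC (adjusted p = 0.029). The NotchIC call was lost in 6 of the 8 fits that left out 1 array.

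Prm read 9.73, 9.79, 9.20 and 9.22 in NotchDN and 9.41, 9.59, 9.07 and 9.85 in NotchIC. Both groups were below wild type, with falls of 0.67 (adjusted p = 0.0208) and 0.68 (adjusted p = 0.0299) that were close to the 0.67 of RafGOF alone. Mf had 11.40, 10.93, 11.18 and 11.08 in NotchDN and 11.39, 10.99, 11.28 and 11.59 in NotchIC. It too lay below wild type on all these arrays, by 0.77 in NotchDN (adjusted p = 0.00147) and by 0.61 in NotchIC (adjusted p = 0.0154). The second Mf probe set did not do so. It read 11.20, 10.86, 11.00 and 10.86 in NotchDN and 11.56, 11.35, 11.42 and 11.32 in NotchIC. NotchDN overlapped wild type there (-0.14, adjusted p = 0.568), while every NotchIC array was above every wild-type array (0.29, adjusted p = 0.181). Averaged over both probe sets, the NotchIC change of Mf was -0.16 (adjusted p = 0.474).

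Obsc measured 6.42, 6.40, 6.21 and 6.29 in NotchDN and 6.90, 6.78, 6.56 and 6.68 in NotchIC. NotchDN was below wild type throughout, and NotchIC overlapped it at array 1. The falls were 1.07 (adjusted p = 0.000323) and 0.67 (adjusted p = 0.0198). For bt the arrays gave 9.59, 9.13, 8.72 and 8.93 in NotchDN and 9.70, 9.63, 9.41 and 9.62 in NotchIC. All were below wild type, by 1.01 in NotchDN (adjusted p = 0.000185) and 0.52 in NotchIC (adjusted p = 0.0401). The NotchIC call for bt was lost in all 8 fits that left out 1 array and in 4 other fits.

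The tn signals were 8.01, 7.83, 7.69 and 7.69 in NotchDN and 8.65, 8.35, 8.37 and 8.31 in NotchIC. NotchDN was below all wild-type arrays, while NotchIC array 1 lay within the wild-type range. Only NotchDN passed (-0.95, adjusted p = 2.55e-05), and NotchIC stood at -0.34 (adjusted p = 0.0771). Strn-Mlck had 6.71, 6.92, 6.90 and 7.13 in NotchDN and 7.40, 7.13, 7.27 and 7.45 in NotchIC. NotchDN lay below wild type and NotchIC overlapped it, with changes of -0.58 (adjusted p = 0.033) and -0.18 (adjusted p = 0.595). The NotchDN call for Strn-Mlck was lost in 8 of 16 alternative fits, among them that without the arrays numbered 2 (-0.51).

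Troponin T, from up, read 8.71, 8.52, 8.95 and 8.54 in NotchDN and 9.34, 9.26, 8.73 and 9.08 in NotchIC. NotchIC overlapped wild type and NotchDN did not. The changes were -0.89 (adjusted p = 0.000465) and -0.47 (adjusted p = 0.0565). Tm2 gave 9.78, 9.80, 9.60 and 9.65 in NotchDN and 9.95, 10.01, 9.88 and 10.16 in NotchIC. Both groups were below wild type, by 0.82 (adjusted p = 7.66e-05) and 0.53 (adjusted p = 0.00642).

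Act87E had 9.23, 9.94, 9.10 and 9.25 in NotchDN and 9.43, 10.16, 9.70 and 9.92 in NotchIC. Array 2 was the highest in each, and both groups were below wild type, by 1.24 (adjusted p = 0.000821) and 0.82 (adjusted p = 0.0265). For Act88F the signals were 6.07, 5.84, 5.92 and 5.85 in NotchDN and 5.79, 5.50, 5.55 and 5.90 in NotchIC. NotchIC had the lower mean, and the groups overlapped. NotchIC fell by 0.65 against wild type (adjusted p = 0.0192), and NotchDN stood at -0.41 (adjusted p = 0.111). Without the arrays numbered 2 the NotchIC change was -0.42 and did not pass (adjusted p = 0.0589).

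Mlp60A measured 11.87, 11.40, 11.41 and 11.77 in NotchDN and 11.73, 11.44, 11.70 and 12.17 in NotchIC. Both were below every wild-type array, by 0.91 (adjusted p = 0.00113) and 0.76 (adjusted p = 0.00862). Mlp84B had 9.28, 8.96, 9.24 and 9.37 in NotchDN and 9.65, 9.44, 9.71 and 9.90 in NotchIC. NotchDN was below wild type, and NotchIC array 4 overlapped it. Mlp84B changed by -0.88 in NotchDN (adjusted p = 0.000418), and stood at -0.42 in NotchIC (adjusted p = 0.0837).

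Zasp66 read 11.07, 10.56, 10.54 and 10.74 in NotchDN and 11.39, 11.11, 11.20 and 11.28 in NotchIC. All were below wild type, and the change passed in NotchDN (-0.90, adjusted p = 0.000153) and not in NotchIC (-0.38, adjusted p = 0.0862). Zasp52 had 9.34, 10.38, 10.34 and 10.98 in NotchDN and 10.82, 10.78, 11.35 and 11.40 in NotchIC. NotchIC was above wild type on every array and rose by 1.28 (adjusted p = 0.0163), while NotchDN had array 1 below wild type and the other 3 above it and stood at 0.45 (adjusted p = 0.436). Without NotchIC array 3 the Zasp52 change was 1.19 and did not pass.

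Adding either Notch transgene to RafGOF gave no call among the sarcomere genes in the fit without the replicate block. In RafGOF NotchDN against RafGOF, 0 of 25 genes rose and 0 fell in the limma fit (0.818% and 0.551% of all genes), and 2 had an unadjusted p under 0.05. The median change was -0.21, and 19 of 25 changes were below 0. With the replicate block 2 genes fell and none rose, beside 3.2% and 2.14% of all genes. They were Zasp52 (-0.85, adjusted p = 0.0195) and Msp300 (-0.37, adjusted p = 0.0459), which without the block had adjusted p = 0.39 and 0.945. Zasp52 averaged 10.26 ± 0.679 in NotchDN and 11.11 ± 0.663 in RafGOF (SD, n = 4 each), and its groups overlapped.

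In RafGOF NotchIC against RafGOF, 0 of 25 genes rose and 0 fell in limma (1.4% and 1.61% of all genes). The block gave 0 and 0 as well (4.11% and 4.55% of all genes), and without it 2 genes had an unadjusted p under 0.05. The median change was 0.08, and 16 of 25 changes were above 0. The gene tn was the one whose 4 NotchIC arrays all lay above the 4 RafGOF arrays, with a change of 0.39 (SE 0.119, adjusted p = 0.126). The share of all genes separated in this way was not counted. Outside the sarcomere, kirre moved in both comparisons, by 1.62 in NotchDN (adjusted p = 5.38e-06) and by -0.96 in NotchIC (adjusted p = 0.000649).

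Set directly against each other, RafGOF NotchDN and RafGOF NotchIC differed in 2 of 25 sarcomere genes, both lower in NotchDN, and none was higher (5.47% of all genes lower and 6.09% higher). At an unadjusted p under 0.05 limma gave 11 genes, with no share of all genes counted at that threshold. The median difference was -0.40, beside 0.0067 for all genes, and 20 of 25 were below 0. In 7 genes all NotchDN arrays lay below all NotchIC arrays, against 7.32% of all genes. The called genes were tn, at -0.61 (SE 0.119, adjusted p = 0.00389), and Zasp66, at -0.52 (SE 0.136, adjusted p = 0.0253), with the array values given above. The call for tn was kept in all 16 alternative fits. That for Zasp66 was lost in 7, among them another quantile normalisation (-0.41, adjusted p = 0.12) and the fit without the arrays numbered 2 (-0.51, adjusted p = 0.081). In both, the highest NotchDN array was below the lowest NotchIC array.

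With the replicate block 9 genes were lower in NotchDN and none was higher, beside 13.8% and 10.6% of all genes. The added genes were bt (adjusted p = 0.0177), sls (adjusted p = 0.0326), TpnC73F (adjusted p = 0.0148), Msp300 (adjusted p = 0.00146), Zasp52 (adjusted p = 0.00597), Mlp84B (adjusted p = 0.00113) and Tm2 (adjusted p = 0.0395). Mlp84B averaged 9.21 ± 0.178 in NotchDN and 9.68 ± 0.189 in NotchIC, and TpnC73F averaged 8.43 ± 0.195 in NotchDN and 8.88 ± 0.166 in NotchIC (SD, n = 4 each). Neither gene overlapped between the groups. In the fit without the block, dimmer probe sets of Zasp66 (-0.63), sls (-0.53) and Msp300 (-0.59) were also lower in NotchDN. They were 3 of the 17 further probe sets, beside 767 lower and 870 higher of all 18769. This Msp300 probe set averaged 6.81 in NotchDN and 7.41 in NotchIC and is not the one called in RafGOF against wild type. Without the block, other muscle genes had 3 of 28 lower and 1 higher (5.47% and 6.09% of all genes). Among these were Hand, a transcription factor of visceral and heart muscle, at -0.85 (adjusted p = 0.0444), and kirre at 2.59. One of 8 Malpighian tubule genes was lower, ZnT35C (-0.96), and that list averaged 8.65 to 9.24 in NotchDN and 9.18 to 10.23 in NotchIC. Its part in the difference was not tested.

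In some sarcomere genes the arrays differed by replicate number in the same way in every group. Msp300 was at 8.72 to 9.48 on array 2 of the 4 groups and at 9.72 to 10.67 on the other 12 arrays. Its array 2 lay 0.75 to 0.97 below the group mean in every group, and the brightest Msp300 probe set was called in no comparison in the fit without the block. Averaged over its probe sets, Msp300 passed without the block in NotchDN against wild type (-0.30, adjusted p = 0.00763) and in NotchDN against NotchIC (-0.25, adjusted p = 0.0474). The sls signals were below the group mean on arrays 1 and 2 and above it on arrays 3 and 4 of every group. Mlc2 went the other way, with array 2 lying 0.44 to 0.78 above the mean. The labels do not say what the numbers stand for.

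Counted over the 25 genes, all 4 arrays of a number lay on one side of their group means in 8 genes for number 1, 15 for number 2, 13 for number 3 and 6 for number 4. Over all genes the shares were 37.2%, 47.4%, 25.9% and 25.0%. As a description over the 16 deviations from group means, which share these numbers, Mlp84B and Msp300 correlated at 0.904, Mlp60A and Mlp84B at 0.849, and Mlc2 and Msp300 at -0.914. The median over the 300 pairs of genes was 0.13, with 180 pairs above 0.

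**Figure D5:**
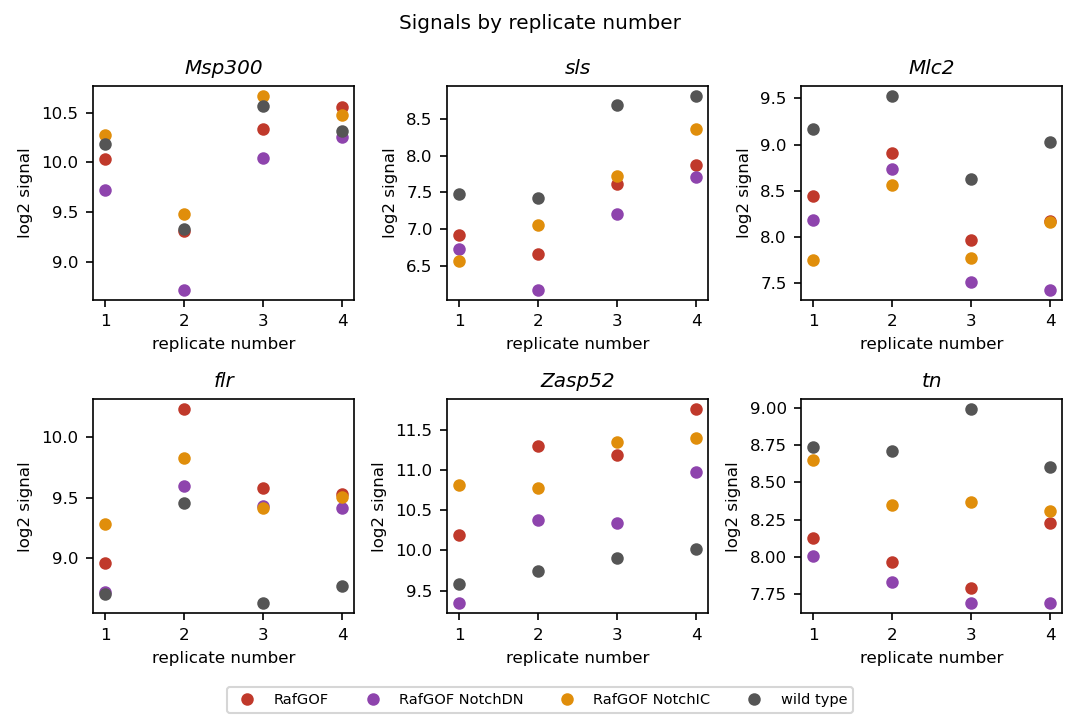
Log2 signals of 6 genes are plotted by replicate number, one point per array, coloured by group. Msp300 is lowest on array 2 of every group (8.72 to 9.48), sls is lower on arrays 1 and 2 than on arrays 3 and 4, and tn is ordered by group instead.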

How the data were processed

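Per the labels, midgut RNA was isolated with TRIzol and biotinylated by a 3' IVT kit for Affymetrix arrays. The authors deposited log2 signals that RMA had produced, per the submitters' processing notes; its version is not given in the sources used here. No further normalisation was applied. Of 18952 probe sets, 183 controls were left out. The other 18769 were fitted with limma 3.58.1 (R 4.3.3) with 1 coefficient per group over 16 arrays, and two-sided p-values were adjusted by Benjamini-Hochberg over all of them. The fit was tested on simulated arrays with independent noise and 200 changed probe sets. These held no shared effect of the replicate number, so that test does not cover such an effect. The number of arrays limits the precision.

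All 25 measured genes could be named. Array values are given for genes called in any of the 6 comparisons. Other probe sets are named where their mean was at least 5 and their call in RafGOF minus wild type differed. The second ones of Zasp66 and Prm, and those named in other comparisons, were added after their values were seen. From other lists at most the 3 largest called genes are named, or 2 outside that comparison. The genes and lists were chosen with earlier results of these data known.

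Arrays with the same number were compared by their deviations from the group means. Pearson's r was 0.127 to 0.594 between RafGOF and wild type, 0.494 to 0.785 for NotchDN and RafGOF, 0.104 to 0.528 for NotchIC and RafGOF, 0.157 to 0.529 for NotchDN and NotchIC, and 0.155 to 0.668 between wild type and NotchDN. All of these exceed 0.1, so the numbers may pair the arrays of these comparisons. The fit that gave the calls leaves the numbers out. The fit with the replicate block, given beside it, takes them in. For NotchIC against wild type, at 0.0489 to 0.574, the numbers were not taken as pairs. Alternatives were the replicate block, other scalings, a filter on low signals, other moderation, the mean of a gene's probe sets, the compared arrays only, and leaving out arrays.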

Additional observations from a re-analysis of the deposited data

Results flagged for a closer look

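In 3 of the 100 sets of 4 arrays examined (25 genes in 4 groups), 1 array stood apart from the other 3 by Dixon's ratio, above its critical value at the 95% level. Chance marks about 1 in 20 such groups. NotchIC array 1 read 8.65 for tn, and the other 3 NotchIC arrays 8.31 to 8.37 (ratio 0.841). Wild-type array 2 read 4.13 for TpnC4, where the others were at 3.25 to 3.34 (ratio 0.898), and 9.46 for flr, where the others were at 8.63 to 8.77 (ratio 0.836).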

How the results depend on the processing

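Counts of called sarcomere genes were recomputed under each alternative, and no called change reversed its direction. Falls in RafGOF against wild type numbered 10 to 15 and in NotchDN against wild type 11 to 17, beside 13 in each. Over all probe sets tested, falls numbered 1195 to 2289 in RafGOF, beside 1474, and 1361 to 2580 in NotchDN, beside 1741. Rises in RafGOF against wild type were 1, but 2 with the replicate block and 1 to 2 with an array left out (2 without wild-type array 2 or without RafGOF array 1, when flr passed). Without the arrays numbered 2 this count was also 1, with flr in place of Zasp52. Falls in NotchDN against RafGOF were 0, but 2 with the block. NotchDN against NotchIC had 2 falls, but 9 with the block, 4 with arrays centred on the median, 1 after another quantile normalisation and 1 to 3 with an array left out (1 without NotchDN array 2 or 3, or NotchIC array 1 or 4). Over all probe sets this comparison had 767 falls, but 1958 with the block, 778 with centred arrays and 671 after another quantile normalisation. With an array left out it had 402 to 771. Rises in NotchDN against wild type were 0, but 1 with the block. Rises in NotchIC against wild type were 1, but 2 with the block, 2 without the arrays numbered 2, and 0 to 1 with an array left out (0 without NotchIC array 3). The 9 falls in NotchIC against wild type became 14 with the block (11.7% of all genes, against 6.77% without it), whose numbers were not taken as pairs here. With an array left out they became 3 to 8 (3 without NotchIC array 3, 4 without wild-type array 4, 5 without wild-type array 2). Over all probe sets, falls went from 984 to 600, 726 and 828 in these fits, in the same order. The cause of these moves was not tested. Of the values of called genes under alternatives, 201 of 224 kept their call in RafGOF, 197 of 208 in NotchDN and 119 of 160 in NotchIC, all against wild type, and 25 of 32 in NotchDN against NotchIC. Zasp67, TpnC41C and TpnC4 lay under a mean of 5, where the lack of a call says little.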
